A study of Mus musculus with 12 samples.

Results

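The genes described here are 41 nuclear receptors of the mouse other than the estrogen receptors and the NR5A receptors, measured in cumulus cells, which descend from granulosa cells and enclose the oocyte. They were looked up by gene symbol in the annotation of the array, and 39 of the 41 had a probe set, among 19938 genes with one of their own. Nr1h2 and Nr2e3 are not analysed here. Each of the 39 was read by 1 probe set.

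Nuclear receptors are transcription factors that bind DNA through zinc fingers and change their activity when a small lipid-soluble molecule binds them, although several members are orphans with no settled ligand. Retinoic acid, thyroid hormone, vitamin D, lipid and bile acid receptors bind DNA as heterodimers with a retinoid X receptor (RXR), steroid receptors act as homodimers held ready by heat shock chaperones, and REV-ERB receptors repress genes of the circadian clock. In the ovary the progesterone receptor is known for its induction by the ovulatory surge in mural granulosa cells, and mice without it do not ovulate.

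Gene expression was measured on 12 arrays, 4 for each of 3 culture groups. The source of the cumulus-oocyte complexes was 129SV females of 21 to 26 days of age, 44 h after 5 IU of equine chorionic gonadotropin, and collection was in medium with 1 micromolar cilostamide, a phosphodiesterase inhibitor. They were cultured for 8 h, 20 complexes to a drop of 50 microlitres. The culture medium of all groups was alpha-Minimal Essential Medium, to which cysteamine (100 micromolar), glucose (11 mM), polyvinyl alcohol, penicillin and streptomycin had been added. The FSH/EGF group received follicle-stimulating hormone at 50 mIU/ml and epidermal growth factor at 10 ng/ml in conditioned control medium of 293H cells, the GDF9 group received growth differentiation factor 9, an oocyte-secreted factor of the TGF-beta family, at 20 ng/ml, and the control group received the 293H control medium at 0.125% by volume. The labels name no 293H control medium for the GDF9 group, so GDF9 and that medium cannot be told apart in its comparisons. The oocytes were present throughout the culture and were then removed by pipetting. Each array held RNA pooled from 2 of 8 biological replicates per group, and the tests measure the spread between such pools. The cells were measured in bulk, so fewer cells of a type and less RNA per cell cannot be told apart.

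Values were deposited as log2, and every level and difference below is on that scale, where 1 equals a doubling. Arrays of the same group correlated at 0.971 to 0.995. Of 10 granulosa and cumulus markers, all 10 stood above the background level (defined below) on every array. Oocyte markers were above it for 4 to 10 of 21 genes on 11 arrays and for 17 of 21 on control array 4. Gene by gene, these markers lay above the mean of the other controls on control array 4 by a median of 0.94. For the 39 receptors the same median was 0.03, and 22 of them lay above the other controls. The largest of these differences was that of Nr4a1, at 0.91, and Thra stood 0.44 above. Theca and stroma markers were above it for 4 or 5 of 10 genes, endothelial markers for 1 to 4 of 10 and leukocyte markers for 1 to 4 of 9, on each array.

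The background level for a group was set as the level that 95% of 1207 olfactory, vomeronasal and trace amine receptor genes stayed under, since these chemoreceptors are not known to be made by cumulus cells. It was 5.15 in FSH/EGF cells, 5.25 in GDF9 cells and 5.33 in control cells. Probe sets differ in brightness, so each receptor is set against this level and not against other receptors. In each of the 3 groups 22 of the 39 receptors stood above it, where 61.8% of all genes did so in control cells. At the stricter level that 99% of chemoreceptor genes stayed under, 17 receptors remained above in control cells.

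In control cells the receptors with a signal came from most branches of the family. They were the glucocorticoid receptor Nr3c1, the orphan receptors Nr4a1 and Nr4a2, the retinoic acid receptors Rara and Rarg with their partners Rxra and Rxrb, and the clock receptors Nr1d1, Nr1d2 and Rora. The thyroid hormone receptor Thra, all 3 peroxisome proliferator-activated receptors (Ppara, Ppard, Pparg), the estrogen-related receptors Esrra and Esrrg, the orphan receptors Nr2c1, Nr2c2, Nr2f2 and Nr2f6, Hnf4a and the germ cell nuclear factor Nr6a1 completed the 22. Ppara, Esrrg, Hnf4a, Nr6a1 and Nr4a2 lay between the level of the 95% and that of the 99%. The other 17 receptors were not above background in control cells. Among them were Pgr, the mineralocorticoid receptor Nr3c2, the vitamin D receptor Vdr, Rarb, Rxrg, Thrb, the bile acid and xenobiotic receptors Nr1h4, Nr1i2 and Nr1i3, and Nr0b1 and Nr0b2, which lack a DNA-binding domain.

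**Figure D1:**
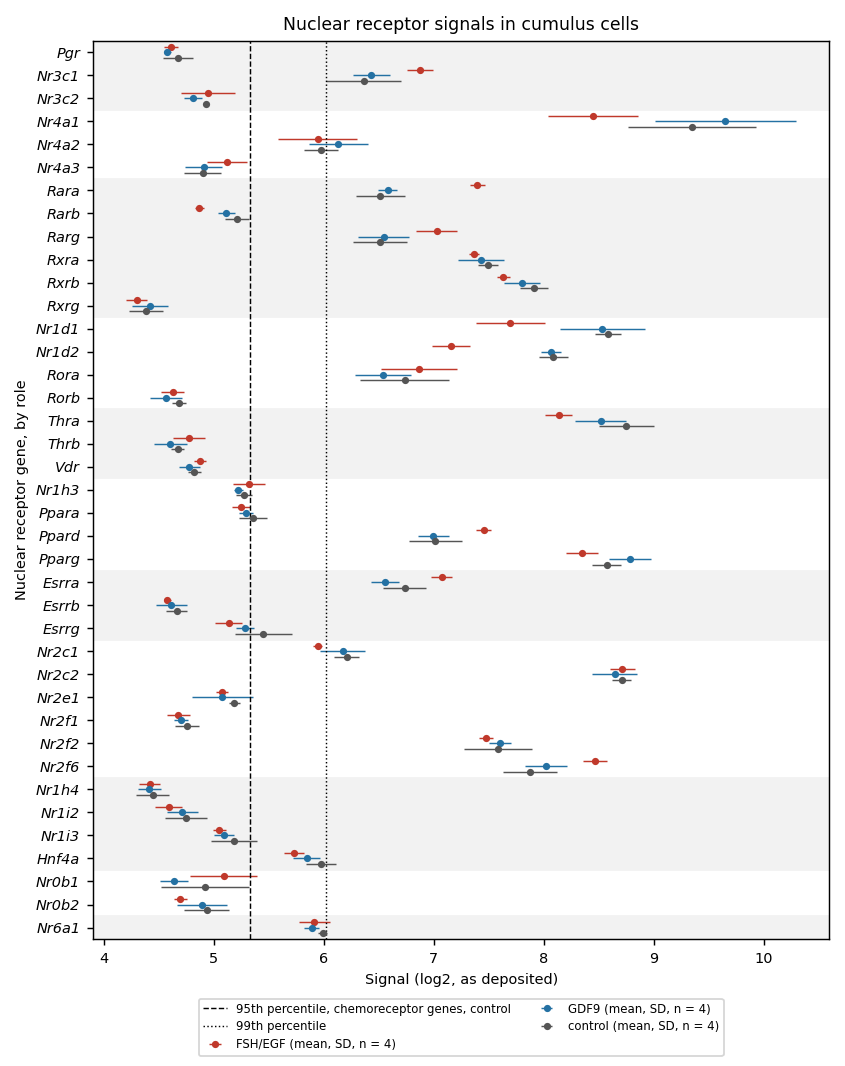
Level of each of the 39 nuclear receptor genes (log2 signal as deposited, horizontal axis), as mean and SD of 4 arrays for FSH/EGF (red), GDF9 (blue) and control (grey). Vertical lines mark the 5.33 and 6.02 that 95% and 99% of chemoreceptor genes stay under in control cells. 22 receptors lie to the right of the dashed line in control cells, and Nr4a1, Nr1d1 and Nr1d2 show the widest gaps to the lower side under FSH/EGF and Rara to the higher.

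A pair of receptors changed sides of the background level between groups, both by little. Nr1h3, the oxysterol receptor LXR-alpha, stood at 5.19, 5.42, 5.47 and 5.19 on the FSH/EGF arrays, at 5.27, 5.24, 5.20 and 5.18 on the GDF9 arrays and at 5.33, 5.34, 5.19 and 5.23 on the control arrays. Esrrg stood at 5.11, 5.29, 4.99 and 5.15 on the FSH/EGF arrays, at 5.28, 5.38, 5.28 and 5.18 on the GDF9 arrays and at 5.74, 5.12, 5.48 and 5.46 on the control arrays. The groups overlapped for both genes. The FSH/EGF minus control difference was 0.05 ± 0.08 (SE) for Nr1h3 and -0.31 ± 0.12 for Esrrg, with limma adjusted p of 0.68 and 0.0604.

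The comparison of FSH/EGF with control cells asked which receptors respond to the gonadotropin and growth factor signals that induce cumulus expansion. Rara, Rarg, Nr3c1, Ppard, Esrra and Nr2f6 rose and Nr1d1, Nr1d2, Thra, Rarb and Rxrb fell, so 11 of 39 receptors passed the limma test at an adjusted p of 0.05 (28.2%). Of all genes 36.8% passed, so the share of receptors that changed lay below the background share. The 6 receptors that rose were 15.4% of the list, where 21.9% of all genes rose, and the 5 that fell were 12.8%, where 14.9% of all genes fell. At an unadjusted p under 0.05 there were 15 receptors, where 48.7% of all genes reached it. No receptor differed by 2-fold or more, which 7.37% of all genes did. Of the 22 receptors above background in control cells 10 changed (45.5%), against 49.9% of all genes above background, and of the 17 not above it 1 changed, against 15.5% of such genes. Between arrays of FSH/EGF and control cells 12 receptors showed no overlap, 4 higher and 8 lower, where 41.9% of all genes showed none.

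Differences in this comparison varied with the level of a gene. Genes with a control level between 8 and 9, where Nr1d1, Nr1d2 and Thra lie, had a median difference of 0.18. Those between 7 and 8, where Ppard, Nr2f6 and Rxrb lie, had one of 0.22. Those between 6 and 7, where Rara, Rarg, Nr3c1 and Esrra lie, had one of 0.05. For those between 5 and 6, where Rarb lies, it was -0.14. Quantile normalization applied once more moved the differences in these ranges by a median of -0.22, -0.21, -0.08 and 0.08, in that order. With it 9 receptors changed and the split became 1 higher (Rara) and 8 lower. With array medians made equal it was 6 higher and 4 lower. Of all genes that passed, 59.4% were higher with the values as deposited. That share was 54.6% with renewed quantile normalization and 72.5% with equal medians.

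**Figure D2:**
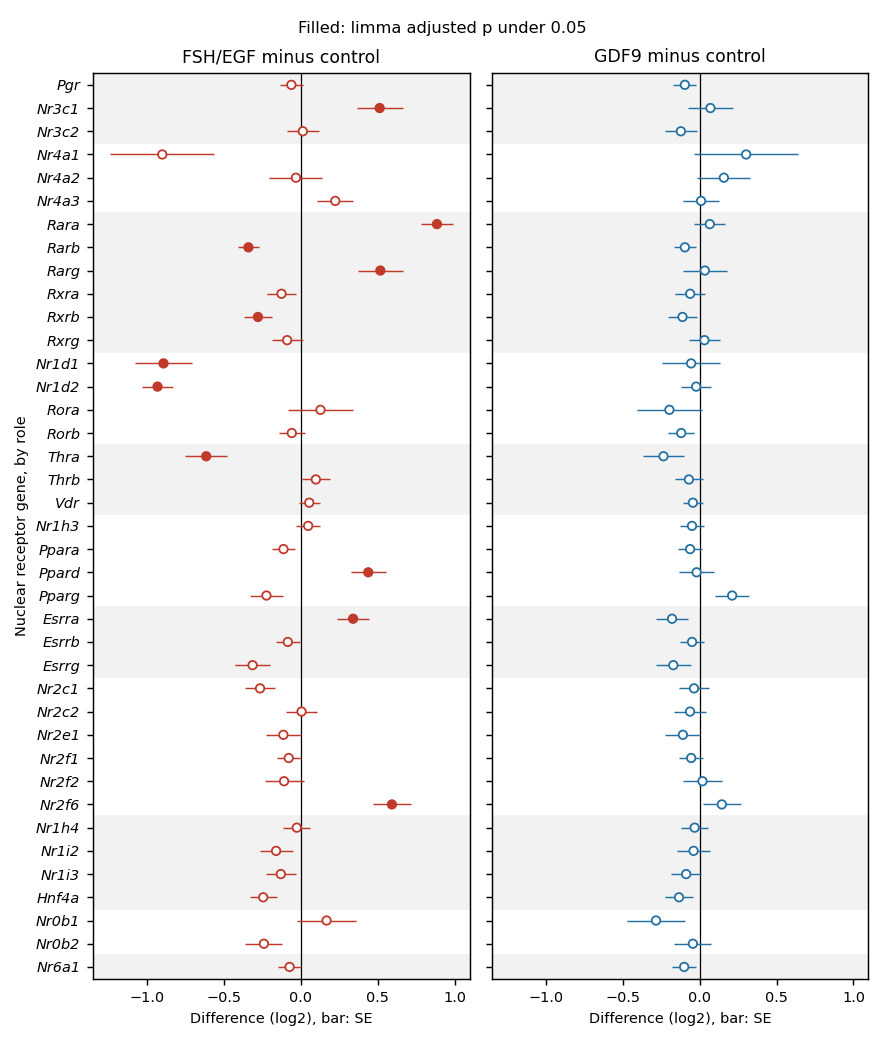
Difference from control (log2, horizontal axis) of each receptor under FSH/EGF (left) and GDF9 (right), with SE bars, and filled points for limma adjusted p under 0.05. Under FSH/EGF 6 filled points lie right of 0 and 5 left of it, and under GDF9 no point is filled.

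The retinoic acid receptors moved in both directions. Rara, the receptor for retinoic acid of the alpha type, stood at 7.31, 7.36, 7.46 and 7.45 on the FSH/EGF arrays, at 6.55, 6.55, 6.51 and 6.71 on the GDF9 arrays and at 6.82, 6.29, 6.42 and 6.51 on the control arrays. Every FSH/EGF array lay above every other array. The difference from control was 0.88 ± 0.10 (SE, 1.85-fold, adjusted p = 2.79e-05), the largest rise among the 39 receptors. Rarg, the gamma type, stood at 6.78, 7.22, 7.02 and 7.08 on the FSH/EGF arrays, at 6.48, 6.61, 6.26 and 6.81 on the GDF9 arrays and at 6.35, 6.69, 6.25 and 6.74 on the control arrays. Its FSH/EGF arrays were the highest against control by a narrow margin, and the difference was 0.52 ± 0.14 (adjusted p = 0.0174). Without FSH/EGF array 2 the adjusted p of Rarg was 0.0535 and without control array 3 it was 0.0556.

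Rarb, the beta type and a textbook target of retinoic acid itself, was below the background level in all 3 groups. It stood at 4.84, 4.92, 4.88 and 4.83 on the FSH/EGF arrays, at 5.09, 5.12, 5.03 and 5.21 on the GDF9 arrays and at 5.19, 5.29, 5.07 and 5.29 on the control arrays. The FSH/EGF arrays were the lowest 4 of all 12, and the difference was -0.34 ± 0.07 (adjusted p = 0.00291). The size of a change below background is not a measure of transcript amount. Of the RXR partners, Rxrb stood at 7.72, 7.60, 7.59 and 7.63 on the FSH/EGF arrays and at 7.89, 7.81, 7.84 and 8.10 on the control arrays, without overlap. Its fall of -0.28 ± 0.09 had an adjusted p of 0.039, which rose above 0.05 under 10 of the 24 alternatives tried. Rxra differed by -0.13 ± 0.10 (adjusted p = 0.351) and Rxrg, below background, by -0.09 ± 0.10.

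**Figure D3:**
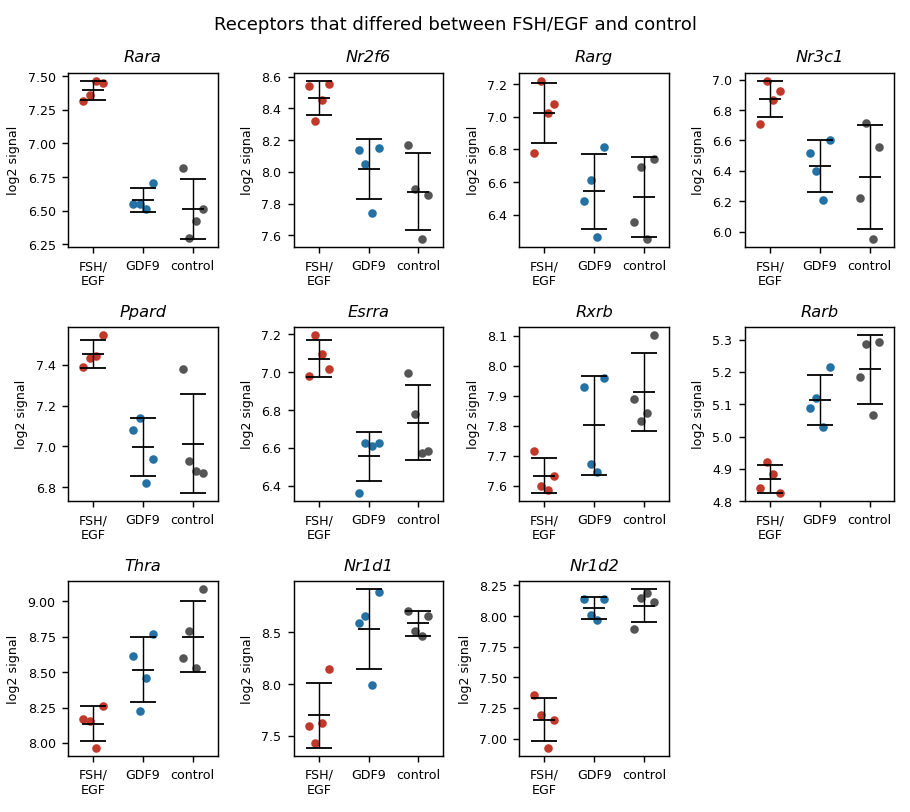
Levels (log2 signal) on each array of the 11 receptors that differed between FSH/EGF and control cells, in FSH/EGF, GDF9 and control order from left to right. Points are arrays, the long bar is the mean and the whiskers are 1 SD (n = 4). The vertical axes differ between panels and do not start at 0. The top row and the first 2 panels of the middle row are higher under FSH/EGF, and the other 5 panels are lower.

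Both REV-ERB genes fell, while the ROR genes, which activate the DNA elements that REV-ERB receptors repress, did not pass the test. Nr1d1 (REV-ERB alpha) stood at 7.59, 7.42, 7.62 and 8.15 on the FSH/EGF arrays, at 8.59, 8.66, 7.99 and 8.89 on the GDF9 arrays and at 8.71, 8.51, 8.46 and 8.66 on the control arrays. The FSH/EGF arrays were all below the control arrays, and array 4 was the highest of them. The difference was -0.89 ± 0.19 (SE, 0.539 of the control level, adjusted p = 0.00303). Nr1d2 (REV-ERB beta) stood at 7.35, 7.19, 6.92 and 7.15 on the FSH/EGF arrays, at 8.14, 8.01, 7.97 and 8.14 on the GDF9 arrays and at 7.89, 8.15, 8.19 and 8.11 on the control arrays. No FSH/EGF array came within the range of either other group, and the difference was -0.93 ± 0.10 (0.524 of the control level, adjusted p = 1.22e-05), the largest fall among the 39. Rora differed by 0.13 ± 0.21 and had the second widest spread between arrays of a group among the receptors, and Rorb was below background.

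The promoters of the REV-ERB pair are shown because these genes fell together, as RefSeq gives them on GRCm38.p6, from 250 bases before the transcription start to 50 bases after it. Capitals mark AGGTCA, the core element that many nuclear receptors recognise, searched on both strands.
Nr1d1, chr11:98775328-98775627, minus strand: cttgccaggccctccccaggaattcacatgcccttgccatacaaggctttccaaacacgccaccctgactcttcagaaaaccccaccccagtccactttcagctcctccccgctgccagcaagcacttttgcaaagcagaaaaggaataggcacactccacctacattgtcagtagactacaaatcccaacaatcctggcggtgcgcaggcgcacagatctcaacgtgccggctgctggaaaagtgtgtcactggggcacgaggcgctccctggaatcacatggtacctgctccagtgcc
Nr1d2, chr14:18239057-18239356, minus strand: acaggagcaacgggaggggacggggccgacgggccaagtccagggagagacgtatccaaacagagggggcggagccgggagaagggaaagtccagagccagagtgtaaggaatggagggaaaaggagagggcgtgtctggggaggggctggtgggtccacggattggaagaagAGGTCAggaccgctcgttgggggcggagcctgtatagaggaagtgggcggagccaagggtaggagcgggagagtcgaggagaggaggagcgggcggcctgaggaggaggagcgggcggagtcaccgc
The Nr1d2 window held 1 such element, whose first base lies 77 bases before the start, and the Nr1d1 window held none. Neither held the E-box CACGTG, the element of the CLOCK and BMAL1 pair. AGGTCA was in the promoters of 10 of 37 receptors with an entry (27%), where 18.1% of all genes held it, and CACGTG was in those of 4 (10.8%), where 8.09% of all genes held it. A gene counted when any of its promoters matched. The 37 receptors had 56 promoters and the 27025 genes had 32851, so more windows per gene were searched for the receptors. A match of letters is no measured binding.

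Thra, the alpha thyroid hormone receptor, stood at 8.17, 8.15, 7.97 and 8.26 on the FSH/EGF arrays, at 8.61, 8.23, 8.46 and 8.77 on the GDF9 arrays and at 8.60, 8.79, 8.53 and 9.08 on the control arrays. The FSH/EGF and control arrays did not overlap, and the GDF9 arrays overlapped with both. The difference from control was -0.62 ± 0.14 (adjusted p = 0.00448). The genes Thra and Nr1d1 share 1075 bases on chromosome 11 in the RefSeq table and are known to run on opposite strands. Whether their probe sets read the shared stretch was not tested. Thrb and Vdr were below background and differed from control by 0.10 ± 0.09 and 0.05 ± 0.07.

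Of the steroid hormone receptors, Nr3c1 rose and Pgr had no signal above background in any group. Pgr stood at 4.53, 4.61, 4.60 and 4.69 on the FSH/EGF arrays, at 4.53, 4.58, 4.61 and 4.59 on the GDF9 arrays and at 4.78, 4.62, 4.79 and 4.50 on the control arrays. The groups overlapped, and the FSH/EGF minus control difference was -0.06 ± 0.08, with a 95% interval from -0.23 to 0.10. Nr3c1, which binds glucocorticoids, stood at 6.71, 6.99, 6.87 and 6.93 on the FSH/EGF arrays, at 6.52, 6.40, 6.21 and 6.60 on the GDF9 arrays and at 6.22, 6.71, 5.95 and 6.56 on the control arrays. Its lowest FSH/EGF array met its highest control array at 6.71. The difference was 0.51 ± 0.15 (adjusted p = 0.0215), and it missed the threshold under 6 alternatives, among them the removal of FSH/EGF array 2 or 4 or control array 1 or 3, with adjusted p of 0.0515 to 0.0579. Nr3c2, the mineralocorticoid receptor, was below background and differed by 0.01 ± 0.10.

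Among the lipid sensors Ppard alone passed the test. It stood at 7.39, 7.43, 7.44 and 7.55 on the FSH/EGF arrays, at 7.08, 7.14, 6.82 and 6.94 on the GDF9 arrays and at 7.38, 6.93, 6.88 and 6.87 on the control arrays. Control array 1 stood apart from the other 3 controls and close to the FSH/EGF arrays. The difference was 0.44 ± 0.11 (adjusted p = 0.012), and 0.24 after renewed quantile normalization (adjusted p = 0.233). Pparg, a receptor for fatty acids and their derivatives, stood at 8.16, 8.44, 8.30 and 8.49 on the FSH/EGF arrays, at 8.77, 8.58, 8.75 and 9.03 on the GDF9 arrays and at 8.48, 8.49, 8.55 and 8.77 on the control arrays. FSH/EGF and control arrays met at 8.49, and the difference of -0.22 ± 0.11 did not pass (adjusted p = 0.143), although it was -0.45 (adjusted p = 0.00364) after renewed quantile normalization. Ppara differed by -0.11 ± 0.08.

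Nr2f6, an orphan receptor of the COUP-TF group, stood at 8.54, 8.32, 8.45 and 8.55 on the FSH/EGF arrays, at 8.14, 8.05, 7.74 and 8.15 on the GDF9 arrays and at 8.17, 7.90, 7.58 and 7.86 on the control arrays. All FSH/EGF arrays were above all others, and the difference from control was 0.59 ± 0.13 (1.51-fold, adjusted p = 0.00335), or 0.37 after renewed quantile normalization (adjusted p = 0.0557). Its relative Nr2f2 (COUP-TFII) stood at 7.38, 7.49, 7.53 and 7.51 on the FSH/EGF arrays, at 7.62, 7.63, 7.47 and 7.71 on the GDF9 arrays and at 7.15, 7.70, 7.61 and 7.88 on the control arrays. These overlapped, with a difference of -0.11 ± 0.13. Esrra, an orphan receptor of genes for mitochondrial energy metabolism, stood at 6.98, 7.20, 7.10 and 7.02 on the FSH/EGF arrays, at 6.36, 6.63, 6.61 and 6.62 on the GDF9 arrays and at 6.99, 6.78, 6.57 and 6.59 on the control arrays. FSH/EGF and control arrays overlapped at control array 1, and the rise of 0.34 ± 0.10 (adjusted p = 0.0271) was lost under 6 alternatives. Nr2c1 and Nr2c2 differed by -0.27 ± 0.10 (adjusted p = 0.0596) and 0.00 ± 0.10, and Nr2e1, Nr2f1 and Esrrb were below background and did not pass.

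The NR4A genes, orphan receptors induced rapidly by cyclic AMP and growth factor signals in many cells, showed no call at 8 h against control. Nr4a1 stood at 8.28, 8.18, 8.28 and 9.06 on the FSH/EGF arrays, at 9.87, 9.92, 8.70 and 10.11 on the GDF9 arrays and at 9.58, 9.09, 8.69 and 10.03 on the control arrays. Of the FSH/EGF arrays 3 lay under every control array, and the fourth lay within their range. The difference was -0.90 ± 0.34 (adjusted p = 0.0651), as large as that of Nr1d1 but with a spread between arrays of a group (SD 0.55) wider than that of 99.8% of all genes. It passed under 8 of the 24 alternatives, among them the removal of FSH/EGF array 4 (-1.10, adjusted p = 0.0378). Over all alternatives the difference ran from -1.12 to -0.45, and the limma adjusted p from 0.0082 to 0.419. Nr4a2 stood at 5.76, 5.91, 5.65 and 6.45 on the FSH/EGF arrays, at 6.20, 6.45, 5.81 and 6.07 on the GDF9 arrays and at 6.08, 6.0, 5.75 and 6.07 on the control arrays. Nr4a3, below background, stood at 5.03, 5.04, 5.02 and 5.40 on the FSH/EGF arrays, at 4.81, 5.16, 4.83 and 4.81 on the GDF9 arrays and at 5.04, 4.75, 4.76 and 5.04 on the control arrays. All 3 genes were highest on array 4 among the FSH/EGF arrays, and the differences of Nr4a2 and Nr4a3 from control were -0.03 ± 0.17 and 0.22 ± 0.12.

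The NR4A promoters are shown because they held more matches to the core of the cyclic AMP response element than the other receptors. Capitals mark that core, TGACG, on either strand (CGTCA on the other). The full element TGACGTCA, which holds the core on both strands, was in none of the 3. It was in the promoters of Nr2e1 and Nr6a1, 2 of 37 receptors (5.41%), where 2.03% of all genes held it.
Nr4a1, chr15:101266596-101266895, plus strand: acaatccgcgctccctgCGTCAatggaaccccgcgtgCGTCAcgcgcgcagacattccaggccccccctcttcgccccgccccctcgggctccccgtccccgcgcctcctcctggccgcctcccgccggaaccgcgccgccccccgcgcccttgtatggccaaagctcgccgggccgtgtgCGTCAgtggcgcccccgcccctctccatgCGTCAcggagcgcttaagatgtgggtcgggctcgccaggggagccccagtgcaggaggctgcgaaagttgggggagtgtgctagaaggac
Nr4a2, chr2:57123954-57124253, minus strand: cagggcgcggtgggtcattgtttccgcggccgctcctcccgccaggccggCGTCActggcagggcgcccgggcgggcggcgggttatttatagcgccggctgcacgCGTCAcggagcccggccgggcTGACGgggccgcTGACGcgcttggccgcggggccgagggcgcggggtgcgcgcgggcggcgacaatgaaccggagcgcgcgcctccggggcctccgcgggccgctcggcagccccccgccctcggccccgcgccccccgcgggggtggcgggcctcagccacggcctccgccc
Nr4a3, chr4:48045055-48045354, plus strand: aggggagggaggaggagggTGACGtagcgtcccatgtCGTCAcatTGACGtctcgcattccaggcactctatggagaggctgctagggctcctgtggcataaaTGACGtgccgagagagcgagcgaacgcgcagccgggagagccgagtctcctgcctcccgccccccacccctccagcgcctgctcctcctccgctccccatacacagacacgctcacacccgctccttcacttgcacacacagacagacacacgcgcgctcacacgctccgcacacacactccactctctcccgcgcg
Each of the 3 windows held 4 matches, and 0.255% of all genes had a promoter with 4 or more. At least 1 match was present in 13 of 37 receptors with a promoter (35.1%), where 23% of all genes had one, and the other receptors had at most 3. Here too a gene counted when any of its promoters matched, and the receptors had more promoters per gene than all genes. The matches say nothing of what is bound there in cumulus cells.

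Nr0b1 (DAX1), a repressor of steroidogenic genes, stood at 4.78, 5.04, 5.02 and 5.51 on the FSH/EGF arrays, at 4.68, 4.75, 4.46 and 4.67 on the GDF9 arrays and at 4.56, 5.38, 4.61 and 5.13 on the control arrays, below background by group mean. The control arrays alone spanned most of this range, and the difference of FSH/EGF from control was 0.17 ± 0.19. Nr6a1, known for its expression in oocytes and other germ cells, stood at 5.77, 5.93, 5.86 and 6.10 on the FSH/EGF arrays, at 5.88, 5.98, 5.82 and 5.86 on the GDF9 arrays and at 5.93, 6.01, 5.99 and 6.02 on the control arrays. On control array 4, where oocyte markers were high, Nr6a1 was 0.05 above the mean of the other controls. Hnf4a differed by -0.24 ± 0.09 (adjusted p = 0.0572), and Nr0b2, Nr1h4, Nr1i2 and Nr1i3 were below background and did not pass.

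**Figure D4:**
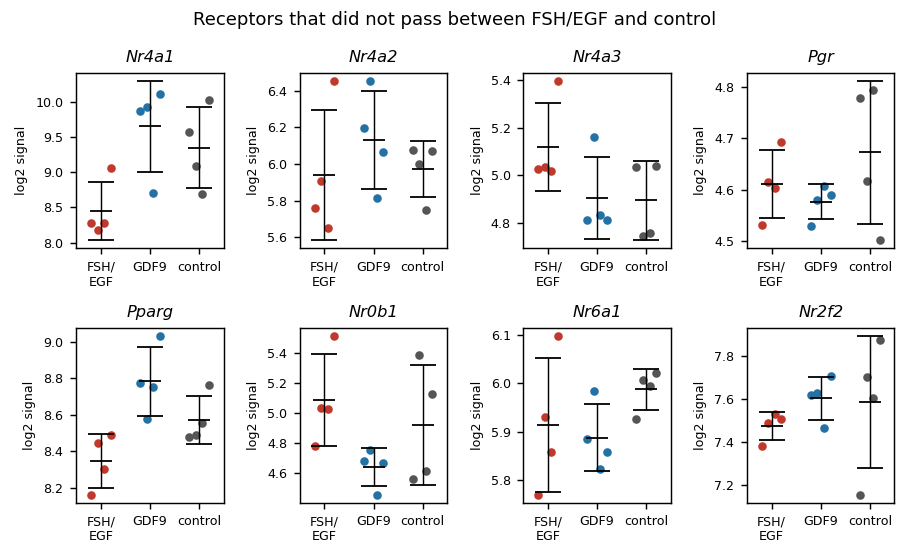
Levels (log2 signal) on each array of 8 receptors that did not pass between FSH/EGF and control cells, in FSH/EGF, GDF9 and control order from left to right. Points are arrays, the long bar is the mean and the whiskers are 1 SD (n = 4), and the vertical axes differ between panels and do not start at 0. Nr4a1 shows 3 low FSH/EGF arrays and 1 at 9.06, and Pgr stays at or under 4.79 on every array.

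The comparison of GDF9 with control cells asked whether the oocyte-secreted factor, added to cultures that still hold oocytes, moves these receptors. No receptor changed (0 of 39), and 0% of all genes passed the limma test at this threshold. At an unadjusted p under 0.05 there were 0 receptors, where 4.95% of all genes reached it, and with unmoderated variances 0 receptors passed. The differences ran from -0.28 (Nr0b1) to 0.30 (Nr4a1). For 38 of 39 receptors the unadjusted 95% interval lay within 1 on either side of 0. The exception was Nr4a1, with an interval from -0.43 to 1.04. Only Nr3c2, below background, had GDF9 arrays all under the control arrays (-0.12 ± 0.10), where 2.32% of all genes showed no overlap. Nr1d1, Nr1d2 and Rara, which had the largest differences among the 11 receptors that passed under FSH/EGF, differed under GDF9 by -0.05 ± 0.19, -0.02 ± 0.10 and 0.07 ± 0.10.

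FSH/EGF cells were also compared with GDF9 cells directly. This comparison and the one with control share the FSH/EGF arrays, so the calls are not independent. Rara, Nr2f6, Rarg, Ppard and Esrra were higher in FSH/EGF cells and Nr1d1, Nr1d2, Rarb, Nr4a1 and Pparg were lower, 10 of 39 receptors (25.6%), where 29.1% of all genes passed. At an unadjusted p under 0.05 there were 14 receptors, where 39.4% of all genes reached it. Arrays did not overlap for 9 receptors, 6 higher and 3 lower, where 33.7% of all genes showed no overlap. Nr4a1 and Pparg passed here but not against control. Nr4a1 differed by -1.20 ± 0.34 (0.434 of the GDF9 level, adjusted p = 0.0215), the only receptor with a 2-fold difference in any comparison, which 6.57% of all genes reached here. GDF9 array 3, at 8.70, lay within the range of the FSH/EGF arrays, and the call was lost without FSH/EGF array 1, 2 or 3 or GDF9 array 1, 2 or 4 (adjusted p 0.0512 to 0.0651). Pparg differed by -0.44 ± 0.11 (adjusted p = 0.0109), without overlap. Esrra was higher by 0.52 ± 0.10 (adjusted p = 0.00259). Nr3c1 (0.44 ± 0.15, adjusted p = 0.0509) and Thra (-0.38 ± 0.14, adjusted p = 0.0652) did not pass, and each passed under 9 of the 24 alternatives. The calls of Rarg, Rarb, Nr2f6 and Ppard here were lost under 7, 6, 4 and 1 alternatives.

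The genes around the receptors were read from lists of coregulators, chaperones, ligand handling enzymes and textbook targets, which were chosen with earlier results of these data known, so their counts describe these arrays and are no independent support. Under FSH/EGF against control, coactivators counted 8 higher and 3 lower of 19 measured, with a median difference of 0.21. Over all genes 21.9% rose, 14.9% fell and the median was -0.07. The largest were Med14, a Mediator subunit (1.57 ± 0.11, SE), and Ncoa7 (1.27 ± 0.13), then Kat2b (0.90 ± 0.08) and Ncoa4 (0.65 ± 0.14). The 3 coactivators that fell, picked after their values were seen, were Ncoa1 (-0.47 ± 0.13), Ncoa2 (-0.39 ± 0.09) and, below background, Ppargc1a (-0.24 ± 0.08). Corepressors counted 5 higher and 2 lower of 13, led by Hr, a partner of thyroid hormone and vitamin D receptors, at 1.32 ± 0.11 and Zbtb7a at 1.27 ± 0.12. Tbl1xr1 and Hdac3, parts of the NCoR complex that unliganded receptors and REV-ERB recruit, rose by 0.82 ± 0.13 and 0.64 ± 0.12. The corepressors that fell were Lcor (-0.56 ± 0.12) and Nrip1 (-0.39 ± 0.13), both picked after their values were seen. Of 14 steroid receptor chaperones 8 rose and 1 fell (median 0.39), beside the same shares of all genes. Dnaja1 rose by 1.11 ± 0.16, Stip1 by 0.91 ± 0.07, Hsp90aa1 by 0.84 ± 0.08 and Ptges3 (p23) by 0.76 ± 0.14. The chaperone that fell was Fkbp5, a gene outside the naming rule that was picked after its value was seen (-0.56 ± 0.12).

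Genes of retinoid supply and breakdown counted 6 higher and 6 lower of 19 (median -0.11), where 21.9% of all genes rose and 14.9% fell. Aldh1a3, an enzyme that makes retinoic acid from retinal, stood at 10.03, 10.05, 10.03 and 10.25 on the FSH/EGF arrays, at 5.92, 6.11, 5.72 and 5.82 on the GDF9 arrays and at 5.72, 5.93, 5.76 and 5.86 on the control arrays. FSH/EGF arrays lay far above all others, 4.27 ± 0.09 above control (19.3-fold, adjusted p = 1.47e-11). Rdh10, which makes retinal from retinol, rose by 2.18 ± 0.18 (4.53-fold) and Rbp4, the retinol carrier, by 1.06 ± 0.11. Crabp2, which carries retinoic acid to the nucleus, stood at 8.98, 8.78, 8.79 and 7.97 on the FSH/EGF arrays, at 10.77, 10.45, 10.49 and 10.40 on the GDF9 arrays and at 10.46, 10.24, 10.39 and 10.34 on the control arrays, and fell without overlap (-1.72 ± 0.18). The other genes of the supply list that fell were picked after their values were seen. Aldh1a1 (-0.98 ± 0.20), Stra6 (-0.70 ± 0.14) and Fabp5 (-0.46 ± 0.08) were above background in control cells. Aldh1a7 (-0.35 ± 0.08) and Lrat (-0.19 ± 0.06) were below it in every group. Textbook targets of retinoic acid receptors, a list that holds Rarb and shares Crabp2, Dhrs3 and others with the supply list, counted 2 higher and 4 lower of 10. Besides Crabp2, Rarres2 fell (-1.19 ± 0.09), and Dhrs3 and Tgm2 rose by 0.93 ± 0.11 and 0.79 ± 0.12.

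**Figure D5:**
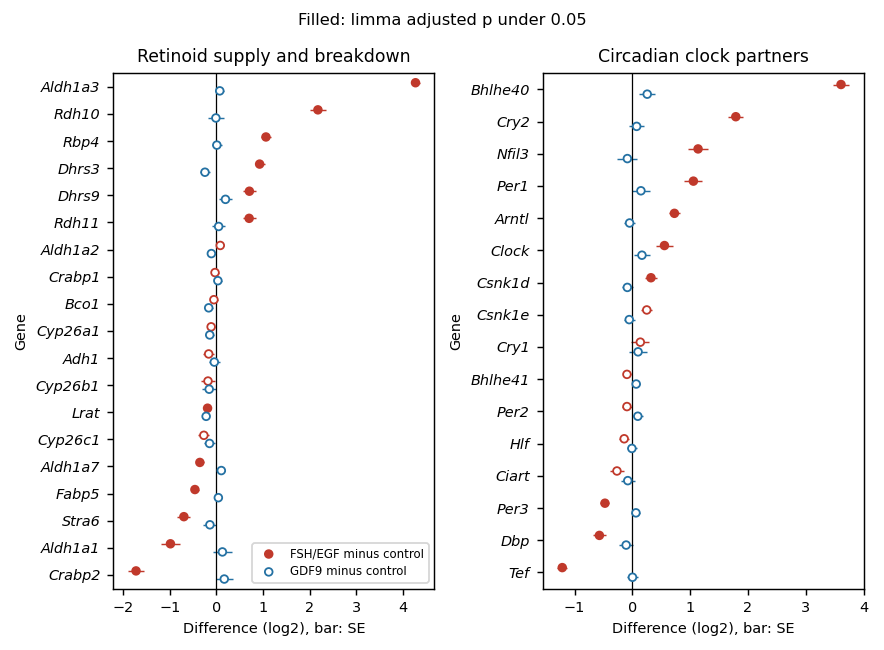
Difference from control (log2, horizontal axis) under FSH/EGF (red) and GDF9 (blue) of the 19 measured genes of retinoid supply and breakdown (left) and the 16 circadian clock partners (right), with SE bars, filled for limma adjusted p under 0.05. Aldh1a3 at 4.27 and Bhlhe40 at 3.61 lie farthest to the right, and no blue point is filled.

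Among 16 clock partners of the REV-ERB receptors 7 rose and 3 fell under FSH/EGF (median 0.19), where 21.9% of all genes rose and 14.9% fell. Bhlhe40, a repressor of CLOCK and BMAL1, stood at 8.47, 8.63, 8.92 and 8.94 on the FSH/EGF arrays, at 5.52, 5.60, 5.35 and 5.09 on the GDF9 arrays and at 4.96, 5.28, 4.98 and 5.32 on the control arrays. It was below the background level of 5.33 in control cells, with a mean of 5.13, and 3.61 ± 0.14 higher under FSH/EGF. As its control level was below background, the size of this rise is not a measure of transcript amount. Cry2, a clock repressor, rose by 1.79 ± 0.13 and Nfil3 by 1.13 ± 0.18, while Tef, which competes with Nfil3 for DNA, fell (-1.21 ± 0.09). The other 2 genes that fell, Dbp and Per3, are outside the naming rule and were picked after their values were seen (-0.57 ± 0.12 and -0.48 ± 0.08).

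In the same comparison 36.8% of all genes passed (21.9% higher, 14.9% lower), and the counts of textbook targets stand beside these shares. Progesterone receptor targets of periovulatory granulosa cells counted 10 higher and 2 lower of 16 (median 0.40), while the group means of Pgr itself stayed under the background level. Adgrg1 rose by 2.54 ± 0.15, Hif1a by 2.34 ± 0.09, Cxcr4 by 2.26 ± 0.16 and Adamts1, a protease of the expanding cumulus matrix, by 2.11 ± 0.24. Those that fell were Edn2 (-0.39 ± 0.10) and Epas1 (-0.55 ± 0.17), picked after their values were seen. Glucocorticoid receptor targets counted 8 higher and 1 lower of 16 (median 0.57), led by Ddit4 (2.73 ± 0.14), Sgk1 (2.16 ± 0.14), Mt2 (2.15 ± 0.31) and Gadd45g (1.73 ± 0.19). The target that fell was Fkbp5, which is also the chaperone given above, and Tsc22d3, likewise picked after its value was seen, did not pass (0.22 ± 0.12). The enzyme Hsd11b2, which inactivates glucocorticoids, fell (-1.44 ± 0.14) and H6pd, which feeds the activating enzyme, rose by 0.65 ± 0.12, 1 higher and 1 lower of 4 corticosteroid handling genes. The activating enzyme itself, Hsd11b1, was below background in every group and did not pass (-0.17 ± 0.09, limma adjusted p = 0.16). It was picked after its value was seen. PPAR targets counted 8 higher and 2 lower of 18 (median 0.19), led by the lipid droplet coat gene Plin2 (2.35 ± 0.17), Cpt1a of mitochondrial fatty acid import (2.16 ± 0.10), Angptl4 (2.05 ± 0.17) and Slc25a20 (0.69 ± 0.12). Cd36 (-0.53 ± 0.15) and Creb3l3 (-0.59 ± 0.11) fell, both picked after their values were seen. LXR targets counted 4 higher and 5 lower of 13 (median -0.18). The 4 that rose were the fatty acid desaturases Scd1 (3.66 ± 0.17, 12.6-fold) and Scd2 (0.70 ± 0.10), Srebf1 (0.98 ± 0.09) and Lpcat3 (0.85 ± 0.12). The 5 that fell, picked after their values were seen, were Abca1 (-0.61 ± 0.19), Smpdl3a (-0.53 ± 0.12), Mylip (-0.42 ± 0.11), Abcg5 (-0.32 ± 0.10) and Pltp (-0.25 ± 0.08). Many of these targets also answer other transcription factors, and which factor acted was not tested.

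Thyroid hormone and vitamin D handling counted 1 higher and 2 lower of 9, a share near the 36.8% of all genes. Crym, which binds thyroid hormone in the cytosol, fell (-0.41 ± 0.09), and Dio2 (0.29 ± 0.09) and Cyp27b1 (-0.27 ± 0.08) were below background and lost their calls under 7 and 8 alternatives. Of 6 measured nuclear receptors outside the 41, 4 fell under FSH/EGF and 0 rose. These were the estrogen receptors Esr2 (-2.29 ± 0.15) and Esr1 (-1.58 ± 0.08), and Nr5a2 (-2.09 ± 0.10) and Nr5a1 (-0.76 ± 0.11), orphan receptors that drive steroidogenic genes. Granulosa and cumulus markers counted 1 higher and 6 lower of 10 in the same comparison (median -0.54), and the part of this shift in the falls of receptors was not tested. Oocyte markers counted 0 higher and 1 lower of 21. Under GDF9 no gene of any of these lists passed.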

How the data were processed

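Per the labels' protocols, RNA of cumulus cells was pooled in pairs for 12 arrays, 4 per culture group. The values used are the log2 expression values deposited by the authors, and the submitters' processing notes list RMA, Partek and GCOS with neither version nor role. A genome build is not given in the sources used here. The table held 35399 rows, of which 21789 had 1 gene symbol in the platform annotation, 1621 had several and 11989 were not listed. Each gene was read from its probe set with the highest mean over the 12 arrays. Arrays give no read depth, and their number limits the precision.

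Groups were compared with limma 3.58.1 in R 4.3.3, fitting a mean for each group to the 12 arrays together, with empirical Bayes variances, p-values adjusted by Benjamini-Hochberg across every row and a threshold of 0.05. The model was tested on simulated data. The members and all lists were chosen with earlier results of these data known. The naming rule took every member, with values on every array for a fixed set of them and for members with a call of at least 1 on the log2 scale, and up to 4 genes with calls from each list, largest first. Values on every array for the other members with calls, and for Aldh1a3, Crabp2 and Bhlhe40, were added after the data were seen. Promoters of 37 members matched the RefSeq table of GRCm38.p6, and Thra and Nr3c1 are named without one. Alternatives are described in the closing section.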

Additional observations from a re-analysis of the deposited data

Results flagged for a closer look

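Within each group of 4 arrays, the highest and lowest array of each receptor was set against the others by Dixon's ratio. Of 117 such groups 9 held an array that stood apart, and chance gives about 1 in 20. In FSH/EGF cells array 4 stood apart for Nr4a1, at 9.06 where the other 3 ran from 8.18 to 8.28, and for Nr4a3, at 5.40 where the others ran from 5.02 to 5.04. FSH/EGF array 2 stood apart on the low side for Nr2c2, at 8.54 where the others ran from 8.76 to 8.78, and for Nr1i2, at 4.40 where the others ran from 4.65 to 4.66. In GDF9 cells array 2 stood apart for Nr4a3, at 5.16 where the others ran from 4.81 to 4.83, and array 1 for Esrra, at 6.36 where the others ran from 6.61 to 6.63. In control cells array 1 stood apart on the high side for Ppard, at 7.38 where the others ran from 6.87 to 6.93, for Nr0b2, at 5.24 where the others ran from 4.80 to 4.87, and for Nr1i2, at 5.03 where the others ran from 4.63 to 4.70. Of the 9, 4 concern genes above the background level (Nr4a1, Nr2c2, Ppard and Esrra).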

How the results depend on the processing

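Of 21 calls of receptors over the 3 comparisons, 10 were kept under every alternative in which the gene was tested, 11 were lost under at least 1 and 0 changed direction, while 12 further calls appeared under at least 1. Nr1d1, Nr1d2, Rara and Thra kept their FSH/EGF minus control calls under all 24 alternatives. Rarb kept its call under the 23 that could test it, since the filter on dim rows left it out. The alternatives were the moderation of variances, the groups in the fit, array weights, filters on rows, the scaling, the probe set rule, the replicate number and each array left out. Leaving out each array in turn gave 7 to 13 receptors for FSH/EGF minus control (11 with all arrays, and 7, of which 3 higher, without FSH/EGF array 2), 0 to 0 for GDF9 minus control, 7 to 11 for FSH/EGF minus GDF9 (10 with all arrays) and 21 to 22 for receptors above background in control cells. With the tests restricted to the 21789 rows of 1 gene symbol, over which p-values were then adjusted, 15 receptors passed in FSH/EGF minus control. Renewed quantile normalization gave 8 receptors in FSH/EGF minus GDF9, 2 higher and 6 lower in place of 5 and 5. Of all genes that passed in that comparison 56.3% were then higher, in place of 63.9%. The 20 receptors above the median of all genes in control cells compare with the 22 above background. With the replicate number as a block the counts were 12, 0 and 12. The share of all genes that passed under each alternative is not given here. These counts therefore cannot be set against a background share. The sample titles do not say whether equal numbers mark paired arrays. Correlations of the deviations of same-numbered arrays ran from -0.39 to 0.22, which cannot decide it, since other differences between arrays can mask a pairing. Of 312 recomputed counts of list genes 307 stayed within 1.5 times, and of 48 list genes named by the naming rule only Dio2 and Cyp27b1 lost a call. List genes picked after their values were seen are not among these 48.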
